A study of Mus musculus with 2 samples.

Results

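The genes described here are the core components of the Wnt signalling pathway in mouse hippocampus: 42 of 21938 protein-coding genes of the GENCODE M21 annotation. They were chosen by symbol alone and not by any measured value. They comprise 19 Wnt ligands, 10 Frizzled receptors, the 2 co-receptors Lrp5 and Lrp6, the 3 Dishevelled genes, 3 genes of the destruction complex (Axin1, Axin2 and Apc), Ctnnb1 and the 4 TCF/LEF transcription factor genes (Lef1, Tcf7, Tcf7l1 and Tcf7l2). DNase-seq, which finds accessible chromatin by where the enzyme DNase I cuts nuclear DNA, was measured in 2 libraries of 1 group. Both came from female B6CASTF1/J mice, a hybrid of C57BL/6J and CAST/EiJ, aged 25 days, with no treatment or comparison group. The tissue is labelled a hippocampal layer, which layer is not said, and it is described as hippocampus. Both libraries carry the same donor entry and the labels leave unsaid whether they came from separate animals, so differences between them may be technical.

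Wnt proteins are secreted lipid-modified ligands that bind Frizzled receptors together with Lrp5 or Lrp6. Dishevelled proteins pass the signal on and hold back the destruction complex, which otherwise marks beta-catenin (Ctnnb1) for degradation. Spared beta-catenin enters the nucleus and joins TCF/LEF factors at their target genes, and Frizzled receptors also signal through routes without beta-catenin. In the hippocampus the pathway is known for patterning the developing field, for neurogenesis in the dentate gyrus and for synapse formation.

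In these libraries the promoters of the receptors and of the intracellular mediators were mostly accessible, and those of the ligands mostly were not. A promoter was called open when a strict peak of each library, that is a peak from the shorter of the 2 lists deposited per library, touched the stretch 500 bp either side of an annotated start. Of the 42 genes, 18 (42.9%) were open, beside 54.2% of all protein-coding genes. A further 8 had a strict peak in replicate 1 only (6% of all genes), 0 had one in replicate 2 only (0.565% of all genes), and 16 had none (39.2% of all genes). The ligands accounted for 1 of the 18 open promoters, from 19 genes, whereas 17 of the 23 other genes (73.9%) were open. With 1 group there was no contrast to test, so these counts are descriptions. The count rested on replicate 2: with replicate 1 alone 26 of the 42 (61.9%) had a peak, beside 60.2% of all genes, and with replicate 2 alone 18 did, beside 54.8%. The ligands had the lowest share of any role there too, 6 of 19, when 20 of the 23 other genes had a peak.

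**Figure D1:**
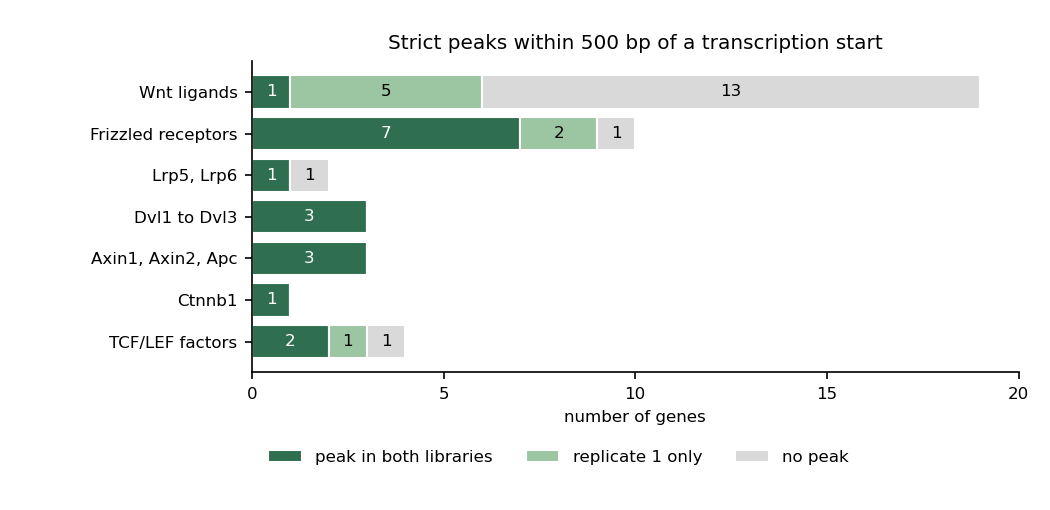
Number of genes (horizontal axis) in each role of the pathway by promoter class: strict peak within 500 bp of a start in both libraries, in replicate 1 only, or in neither. Of the 19 ligands 13 had no peak, while all 3 Dishevelled genes, all 3 destruction complex genes and Ctnnb1 had a peak in both libraries.

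The sequences that carry these results are shown first, from the mouse reference (GRCm38.p6, the build also called mm10), which is C57BL/6J and not the hybrid. All are written 5′ to 3′ on the strand of the gene, and coordinates count from 1. Axin2 had the only promoter footprint of both libraries among these genes that held the TCF/LEF core CTTTGAT, in capitals below. A footprint is a short protected stretch inside an accessible region, here as the authors' files list it. The footprint is at chr11:108920417-108920433. The 27 bases printed add a short flank on each side and lie at chr11:108920412-108920438, from 63 to 89 bp downstream of the outermost start, in an untranslated exon of Axin2 on the plus strand.

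Axin2 footprint: ctggagccggctgcgCTTTGATaaggt

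The next sequences show the accessible DNA of the close paralogs Wnt7a and Wnt7b, the ligand with the open promoter and the ligand with the most distal regions. Capitals mark CACCTG on either strand, an E-box of the kind bound by basic helix-loop-helix and zinc-finger E-box factors. The Wnt7a peak, as far as both libraries share it, is at chr6:91411821-91412000 on the minus strand, and the Wnt7b region is at chr15:85583141-85583340, also on the minus strand. Both lie upstream of the gene and outside its exons.

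Wnt7a promoter peak: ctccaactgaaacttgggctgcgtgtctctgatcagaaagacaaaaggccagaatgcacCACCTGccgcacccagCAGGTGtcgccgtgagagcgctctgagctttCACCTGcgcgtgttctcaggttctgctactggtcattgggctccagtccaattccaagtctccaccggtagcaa

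Wnt7b region at -768: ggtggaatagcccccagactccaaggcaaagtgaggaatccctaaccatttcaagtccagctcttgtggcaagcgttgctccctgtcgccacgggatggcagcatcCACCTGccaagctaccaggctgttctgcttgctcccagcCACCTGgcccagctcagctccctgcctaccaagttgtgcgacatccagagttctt

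The Wnt7a peak held 3 matches and the Wnt7b region at -768 held 2. This motif was searched after these sequences had been seen. It was not counted over promoters in general, so the Wnt7a promoter peak has no like set beside it. Of the 90 different distal regions near the 42 genes, 15 (16.7%) held at least 1 match in their central 200 bp and 2 (2.22%) held at least 2, beside 17.1% and 1.67% of all 21904 shared distal regions.

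The last set compares open with closed promoters, with the SP/KLF core GGGCGG in capitals on either strand. The windows come from the RefSeq promoter table (250 bp before to 50 bp after a start, GRCm38.p6), trimmed to bases outside exons. Ctnnb1 (chr9:120933328-120933399, plus strand), Dvl1 (chr4:155847152-155847401, plus strand), Fzd7 (chr1:59481897-59482196, plus strand) and Fzd4 (chr7:89404223-89404354, plus strand) were open. Wnt3a (chr11:59290753-59291001, minus strand) and Wnt4 (chr4:137277385-137277488, plus strand) had no strict peak in either library.

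Ctnnb1 promoter: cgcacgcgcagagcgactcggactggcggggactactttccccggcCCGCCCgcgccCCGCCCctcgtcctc

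Dvl1 promoter: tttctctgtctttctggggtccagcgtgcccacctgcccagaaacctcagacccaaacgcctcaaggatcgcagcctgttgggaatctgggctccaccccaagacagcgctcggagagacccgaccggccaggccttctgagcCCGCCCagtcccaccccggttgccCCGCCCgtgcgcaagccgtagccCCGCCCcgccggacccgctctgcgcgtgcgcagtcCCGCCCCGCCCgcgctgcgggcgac

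Fzd7 promoter: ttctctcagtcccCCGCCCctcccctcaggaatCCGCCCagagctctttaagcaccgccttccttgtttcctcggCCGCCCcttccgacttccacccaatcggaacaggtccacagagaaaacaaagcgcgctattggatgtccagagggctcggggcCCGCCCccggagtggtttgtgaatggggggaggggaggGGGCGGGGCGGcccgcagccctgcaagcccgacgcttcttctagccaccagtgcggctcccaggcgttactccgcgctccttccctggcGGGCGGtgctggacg

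Fzd4 promoter: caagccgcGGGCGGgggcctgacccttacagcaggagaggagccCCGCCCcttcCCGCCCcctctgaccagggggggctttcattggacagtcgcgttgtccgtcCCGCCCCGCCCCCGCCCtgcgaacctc

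Wnt3a promoter: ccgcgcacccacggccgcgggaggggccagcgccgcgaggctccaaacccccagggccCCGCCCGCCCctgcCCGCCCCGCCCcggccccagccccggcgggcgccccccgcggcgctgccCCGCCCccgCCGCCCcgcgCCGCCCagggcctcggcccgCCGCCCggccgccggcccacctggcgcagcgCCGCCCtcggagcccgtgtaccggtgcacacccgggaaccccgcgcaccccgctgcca

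Wnt4 promoter: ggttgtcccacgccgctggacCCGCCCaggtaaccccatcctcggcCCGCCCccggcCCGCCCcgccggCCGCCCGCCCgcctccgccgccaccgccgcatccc

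These cores were not limited to open promoters. Wnt3a had 9 and Wnt4 had 5, while Ctnnb1 had 2, Dvl1 had 5, Fzd7 had 7 and Fzd4 had 6, in stretches of unequal length and with overlapping matches counted separately. Of the 42 genes 30 were matched to the RefSeq table, and 26 of these (86.7%) held the core in an untrimmed window. The share was 51.0% over 16522 coding genes and 71.0% when weighted to the CpG content of the 30. The core was present in 11 of the 12 matched open promoters and in 15 of the 18 that were not open, and in 12 of 15 matched ligands.

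The tissue label was set against marker genes with the same promoter rule. All 8 pan-neuronal markers and 6 of 8 excitatory hippocampal neuron markers were open, as were 4 of 6 dentate granule markers. Of the astrocyte markers 2 of 8 were open, with 5 more in replicate 1 only. Of the oligodendrocyte markers 2 of 8 were open and of the microglial markers 1 of 7. Open markers numbered 0 of 8 vascular, 0 of 8 interneuron, 0 of 5 choroid plexus and 0 of 8 of other tissues. A peak in replicate 1 only was found for 1 oligodendrocyte, 2 vascular and 1 interneuron markers. By CpG content the mean would be 49.0% for astrocyte, 36.7% for oligodendrocyte and 30.3% for microglial markers. It would be 48.5% for vascular, 54.6% for interneuron, 44.2% for choroid plexus and 35.8% for other tissue markers. In bulk tissue a gene open in few cells and a gene weakly open in many cells cannot be told apart, so a closed call does not show that the gene was closed in every cell. Replicate 1 had 61466 strict peaks with a median deposited signal of 1.44, and replicate 2 had 50379 with a median of 0.803. The scaling of this signal is not stated and the depth is unknown, so signals are given as deposited, and a level in replicate 1 is not compared with one in replicate 2 beyond its ratio over all open promoters. The part that the libraries' different levels play in the 8 promoters with a peak in replicate 1 only was not tested.

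Wnt7a, a ligand that acts in synapse and vessel formation in the brain, was the only ligand open in both libraries. Its highest promoter peak had a signal of 6.88 in replicate 1 and 1.79 in replicate 2, at the 81.0th and 49.4th percentile of the 11890 open coding promoters. The bases shared by both libraries lay between positions -637 and -458 from the outermost start, so that only the edge of the peak reached the 500 bp window. With a window of 250 bp no ligand was open, and 16 of the 42 genes were, beside 52.7% of all. Over the start itself, replicate 1 had a second strict peak centred 76 bp downstream with a signal of 0.831. Replicate 2 had no strict peak there. Its longer list had a peak with a signal of 0.330 that overlapped this replicate 1 peak but held no annotated start. Within the Wnt7a window replicate 1 had 1 footprint and replicate 2 had 2, and none overlapped between libraries.

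A further 5 of the 19 ligands had a strict peak in replicate 1 only. Wnt5a, a ligand of routes without beta-catenin, had a signal of 0.927 and its relative Wnt5b 0.934. Wnt9a had 0.890, Wnt11 had 0.772 and Wnt16 had 0.721. All were far below the median of 4.30 over open promoters in that library, and below the median of 1.07 over all genes with a peak in replicate 1 only. Wnt5a carried 11 listed footprints in its windows in replicate 1 and 0 in replicate 2.

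The remaining 13 ligands had no strict promoter peak in either library: Wnt1, Wnt2, Wnt2b, Wnt3, Wnt3a, Wnt4, Wnt6, Wnt7b, Wnt8a, Wnt8b, Wnt9b, Wnt10a and Wnt10b. They include Wnt3a, Wnt8b and Wnt2b, which are best known from the cortical hem that borders the embryonic hippocampus. The authors' cut-rate files were read in the same windows. They come from the same libraries as the peaks and are not independent of them. Each lists every stretch of bases where DNase I cut more often than background at a false discovery rate (FDR) of up to 0.05. For 9 of the 13 neither library listed any such base: Wnt2b, Wnt3, Wnt3a, Wnt4, Wnt6, Wnt8a, Wnt8b, Wnt9b and Wnt10a. These 9 ligands were the only genes of the 42 without a listed base, and 33.5% of all protein-coding genes had none. Listed bases in both libraries were found for 22 of the 42 (52.4%), beside 60.9% of all. The longer peak lists also had a peak of both libraries for 22 of the 42.

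The other 4 of the 13 had listed bases in 1 or both libraries. Wnt2 had listed bases in both libraries, with a lowest FDR of 0.00518 and 0.00205, and Wnt7b likewise with 0.0234 and 0.0175. Wnt1 reached 0.0373 and Wnt10b 0.0452, each in replicate 1 only. For comparison, Wnt7a reached 2.23e-37 and 9.53e-21. With the longer peak lists Wnt2 and Wnt7b were open too, which made 3 of 19 ligands, beside 59.7% of all protein-coding genes under that rule.

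**Figure D2:**
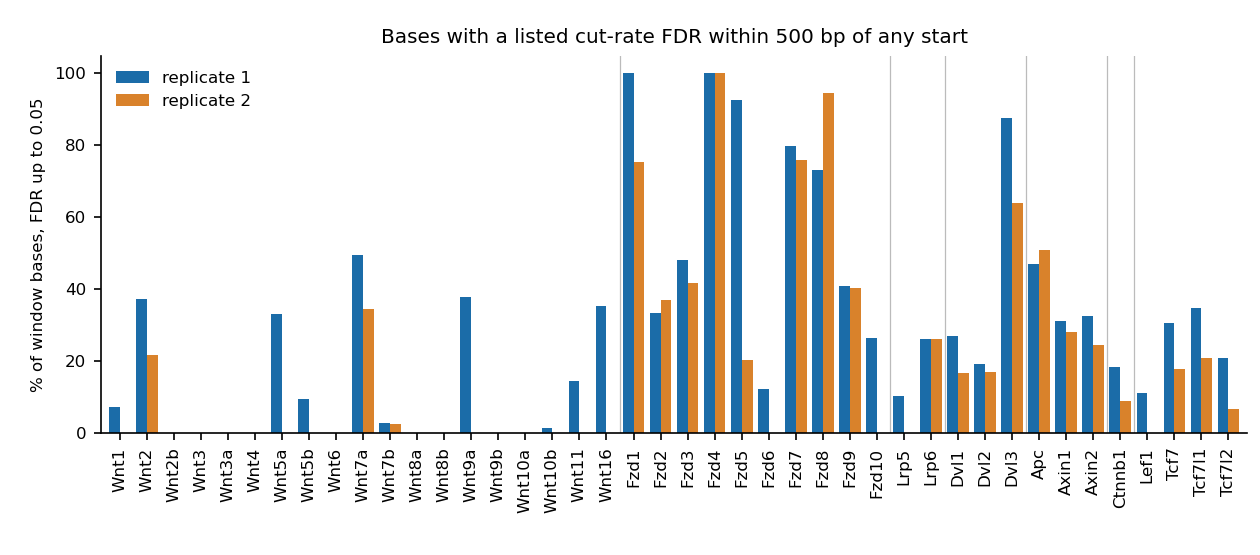
Share of window bases (vertical axis, percent) with a deposited cut-rate FDR of up to 0.05 within 500 bp of any start, for each of the 42 genes (horizontal axis) in replicate 1 (blue) and replicate 2 (orange), with grey lines between roles. The windows of 9 ligands have no such base in either library, while Fzd4 is at 100% in both.

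Promoter CpG content was set beside these calls because CpG-rich promoters are open in most tissues. The ratio of observed to expected CpG in the 1000 bp around the outermost start had a median of 0.655 over the ligands, 0.827 over the receptors and 0.553 over all protein-coding genes. Of the 19 ligands 8 were in CpG deciles 8 to 10 of all genes, the richest, and 1 of these 8 was open (12.5%), beside 90.4% of all genes in those deciles. Of the 10 receptors 8 were in those deciles and 5 of these were open (62.5%). If each gene were open at the rate of its own decile, the mean would be 70.3% over the ligands and 88.2% over the receptors. The observed shares were 5.26% and 70%. Over the intracellular mediators the mean would be 84.4%, against 81.8% observed. Over the 23 genes other than ligands it would be 86.7%, against 73.9% observed. The deciles use the outermost start, while a peak at any start made a promoter open. Ctnnb1 therefore enters both means at the 29.6% of decile 4, although its peak lay 4185 bp downstream of that start. This lowers both means. The number of annotated starts did not separate open from other promoters over the 42 genes: 6 of 14 with 1 start and 12 of 28 with more were open. The 7 ligands with 1 start were all closed, 6 of the 7 receptors with 1 start were open, and 23.9% of all genes with 1 start were open. Of these, 5 of the 7 receptors and 3 of the 7 ligands were in CpG deciles 8 to 10. Among all genes with 1 start in those deciles 75.2% were open.

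Among the Frizzled receptors 7 of 10 were open. Fzd1 had a signal of 3.88 in replicate 1 and 1.85 in replicate 2, and Fzd9, a receptor known for a role in hippocampal development, had 3.58 and 1.31. Fzd7 had 2.73 and 1.28, Fzd8 had 2.57 and 1.27, and Fzd4, the receptor that also binds the non-Wnt ligand norrin, had 2.48 and 1.34. These 5 lay between the 22.7th and 43.6th percentile of open promoters in replicate 1 and between the 28.9th and 52.0th in replicate 2, which is mostly below the middle. Fzd3, which guides axons through planar polarity signalling, had 2.28 and 0.788, and Fzd2 had 1.00 and 0.780.

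The Fzd2 call is the weakest of the 7. Its peak in replicate 1 (chr11:102604241-102604430) and its peak in replicate 2 (chr11:102604121-102604240) adjoin without sharing a base, and the call was lost when peaks had to overlap by 50% of the shorter one, a rule under which 17 of the 42 genes and 53.3% of all were open. Fzd2 lay at the 3.15th percentile of open promoters in replicate 1. Fzd5 and Fzd10 had a strict peak in replicate 1 only, with signals of 1.33 and 1.00. Fzd5 alone of the 8 genes of that class had a footprint of both libraries, and its lowest cut-rate FDR was 3.81e-13 in replicate 1 and 0.00515 in replicate 2. Fzd6 had no strict peak, and a lowest FDR of 0.00382 in replicate 1 only.

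Some promoters, of receptors and of Dvl3, were accessible over long stretches although their peaks were low. Listed bases covered 100% of the window in both libraries at Fzd4, 100% and 75.3% at Fzd1, 79.8% and 75.9% at Fzd7, and 73.2% and 94.6% at Fzd8. At Dvl3 they covered 87.7% and 64.1%. The other open receptors had less: 48.1% and 41.8% at Fzd3, 40.8% and 40.3% at Fzd9, and 33.5% and 36.9% at Fzd2. At Fzd4 the start of the neighbouring gene Tmem135 lies within 1 kb. The 5 genes with the highest signals in replicate 1 had smaller shares than Fzd4, Fzd1, Fzd7, Fzd8 and Dvl3. Their shares were 47.0% and 50.8% at Apc over several windows, 26.9% and 16.6% at Dvl1, 34.8% and 20.8% at Tcf7l1, 49.4% and 34.4% at Wnt7a, and 18.4% and 8.83% at Ctnnb1. Genes with many annotated starts have more window bases, so these shares are compared only as they stand.

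The co-receptors differed from each other. Lrp6 was open with 2.61 in replicate 1 and 1.06 in replicate 2 and had 4 shared footprints. Lrp5 had no strict peak, with listed bases in replicate 1 only at a lowest FDR of 0.00138.

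All 3 Dishevelled genes, which encode the scaffold proteins next to the receptor, were open. Dvl1 had the second highest promoter signal of the 42 genes in replicate 1, at 7.88, and 2.11 in replicate 2. Dvl2 had 3.43 and 1.89, and Dvl3 had 3.21 and 1.39. The destruction complex was open throughout. Apc, the scaffold that is lost in most colorectal tumours, had 8.39 and 2.10, the highest signal of the 42 in replicate 1. Axin1, the central scaffold, had 3.32 and 1.63, and Axin2, its relative and a classical target gene of the pathway, had 3.05 and 1.63.

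Ctnnb1 encodes beta-catenin, which works both as the transducer of the signal and in cell adhesion. Its promoter had 6.53 in replicate 1 and 2.17 in replicate 2, the highest value of the 42 genes in replicate 2. The peak lay 4185 bp downstream of the outermost of 15 annotated starts and 1 bp from an inner one, and the outermost start itself had no peak. Judged by outermost starts alone, 17 of the 42 genes were open, beside 48.8% of all, and by the starts of the basic transcript set 18 were, beside 52.4%. The lowest FDR there was 2.01e-62 and 7.76e-21, with 6 shared footprints.

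Of the TCF/LEF factors 2 of 4 were open. Tcf7l1, which mainly represses targets in the absence of signal, had 7.84 in replicate 1 and 1.67 in replicate 2, the largest ratio between libraries of the 18 at 2.23 on the log2 scale. Its peak was centred at -357 bp in replicate 1 and was lost with a window of 250 bp. Tcf7l2 had 2.10 and 0.705, near the bottom of open promoters at the 17.4th and 8.28th percentile. Tcf7l2, Fzd2 and Fzd3 were the calls lost when only the stronger 50% of each peak list was used, which left 15 of the 42 genes and 47.1% of all. Tcf7 had a peak in replicate 1 only, at 0.971, and Lef1, a marker of Wnt-responsive progenitors, had no strict peak and a lowest FDR of 0.0122 in replicate 1.

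**Figure D3:**
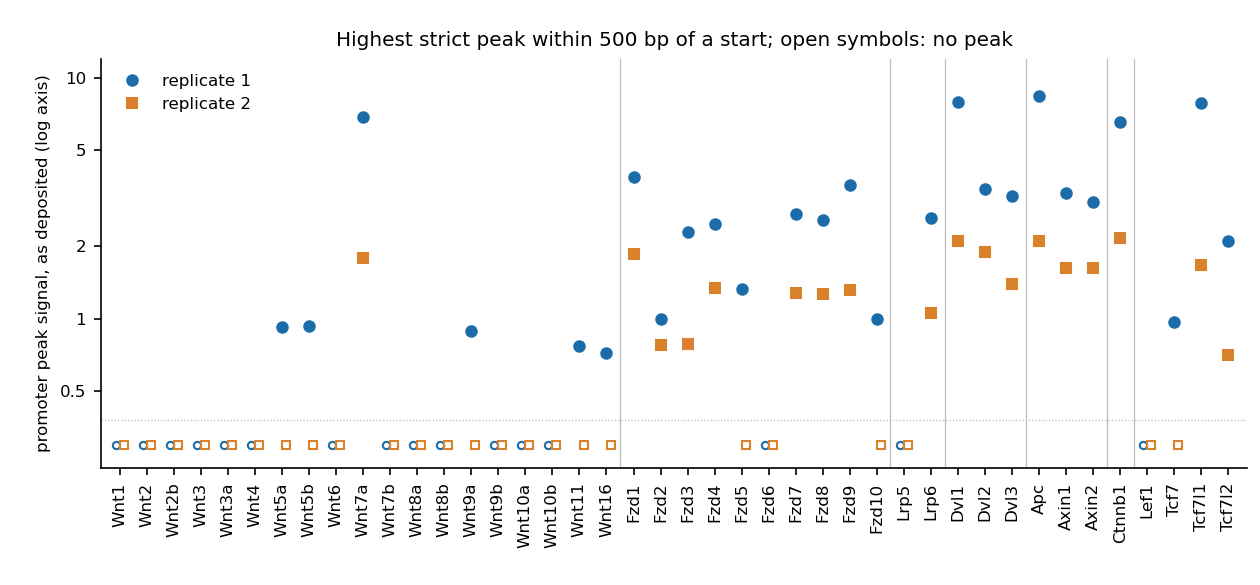
Deposited signal of the highest strict promoter peak (vertical axis, log scale) for the 42 genes (horizontal axis) in replicate 1 (blue circles) and replicate 2 (orange squares), with grey lines between roles. Open symbols in the lowest strip mark genes without a peak; replicate 1 is higher at all 18 genes with both values, and Apc has the highest value in replicate 1 (8.39) and Ctnnb1 in replicate 2 (2.17).

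As a set, the open promoters were lower than open promoters in general. Their median signal was 3.27 in replicate 1 and 1.51 in replicate 2, beside 4.30 and 1.80 over all 11890 open coding promoters, and 5 of 18 were above that median in each library. Replicate 1 was the higher library at 18 of 18, with a median log2 ratio of 1.26, beside 1.24 over all open promoters, of which 99.39% were higher in replicate 1. The ratio between libraries at these genes was thus close to that at open promoters in general.

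Footprints were read in the same windows. Footprints of both libraries overlapped in the promoter windows of 16 of the 42 genes (38.1%), beside 51.3% of all protein-coding genes. None of the 19 ligands was among them, while 6 of 10 receptors and 9 of 11 intracellular mediators were. Fzd7 and Ctnnb1 each had 6 shared footprints, Apc had 5, and Tcf7l1 and Lrp6 had 4 each. Dvl1, Dvl3 and Axin1 had 3, Fzd1, Fzd4 and Axin2 had 2, and Fzd5, Fzd8, Fzd9, Dvl2 and Tcf7l2 had 1.

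The TCF/LEF core CTTTGAT was rare in all of them. Axin2 alone held it in a shared promoter footprint, at chr11:108920427-108920433 as printed above. Over all 11890 open coding promoters 34 (0.286%) did so. The match describes the letters under a footprint and does not identify the bound factor. In the RefSeq windows of the 30 matched genes the core was found in 2, Wnt11 and Wnt5b, beside 4.29% of 27025 genes of the table.

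Away from promoters the ligands had more accessible regions around them than the receptors did. A distal region is a set of overlapping strict peaks of both libraries that lies outside 500 bp of every start of a coding or long noncoding RNA gene, counted from 50 kb before to 50 kb after a gene. The ligands had a median of 3 such regions per gene, the receptors 1.5 and the TCF/LEF genes 3.5, while the median over all protein-coding genes was 1. At least 3 regions were counted for 19 of the 42 genes, beside 29.7% of all protein-coding genes: 13 of 19 ligands, 3 of 4 TCF/LEF factors, 0 of 10 receptors, and Lrp6, Dvl1 and Apc. More regions than the median for genes of like length were found for 25 of the 42 genes, 15 of them ligands, beside 39.6% of all genes. Of the 18 ligands whose promoter was not open, 15 had at least 1 distal region. No region was counted for 6 genes (14.3%), beside 27.6% of all protein-coding genes: Wnt2, Wnt4, Wnt5a, Fzd10, Axin1 and Ctnnb1. No gene of the 42 had 10 or more, as 0.52% of all genes did.

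Nearness does not assign a region to a gene, and several regions were shared. The 42 genes had 104 counted regions, of which 90 were different, because 14 were counted for 2 neighbouring ligands. Wnt6 and Wnt10a shared 6, Wnt1 and Wnt10b shared 3, Wnt3a and Wnt9a shared 3, and Wnt3 and Wnt9b shared 2. The counts of these ligands are therefore not independent. The 19 ligands had 58 counted regions, of which 44 were different, and the 10 receptors had 14, all different. Of the 90 regions 50 had one of the 42 genes as the nearest coding gene start and 26 lay inside another coding gene. By position 42 of the 104 were upstream, 41 downstream, 15 in an intron, 5 in a coding exon and 1 in a noncoding exon. Their median signal was 2.86 in replicate 1 and 1.02 in replicate 2, beside 1.98 and 0.855 over all 21904 shared distal regions, 86 of 90 were higher in replicate 1 (95.6%, beside 94.9% of all), and 74 held a footprint of both libraries (82.2%, beside 83.4% of all).

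Wnt7b, a paralog of Wnt7a that promotes dendrite growth in hippocampal neurons, had the most regions, 8, of which 7 lay upstream. The nearest was centred 768 bp upstream, with 3.93 in replicate 1 and 1.68 in replicate 2. Its sequence is printed above, and it fell just beyond the promoter window, so that Wnt7b was called open with a window of 2000 bp, as were 20 of the 42 genes and 57.8% of all. Another, 16608 bp upstream at chr15:85598981-85599180, had 4.87 and 1.21.

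Wnt11 had the strongest distal region of any ligand when signal was ranked within each library and the ranks were averaged, as for every region called strongest here. It was centred 19711 bp upstream (chr7:98815281-98815520) with 7.79 in replicate 1 and 3.20 in replicate 2, beside a second region 19351 bp upstream (chr7:98815641-98815880) with 6.92 and 2.51. The stronger one held 4 footprints of both libraries and the second 3, and Wnt11 was the nearest coding gene to both. Wnt2b, with no promoter peak in either list and no listed base, had regions 6260 bp upstream (chr3:104968081-104968280), with 7.04 and 1.72, and 31010 bp upstream (chr3:104992841-104993020), with 9.19 and 1.82.

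Of the 14 regions counted for 2 ligands, 10 had a ligand of the pair as the nearest coding start. The strongest of the 3 shared by Wnt1 and Wnt10b (chr15:98804181-98804380), with 9.43 in replicate 1 and 2.15 in replicate 2, lay inside Ddn, which encodes the postsynaptic protein dendrin. The strongest of the 6 shared by Wnt6 and Wnt10a (chr1:74808201-74808420), with 8.52 and 1.94, had Wnt10a as its nearest start, 14948 bp away. Wnt10b had 1 more region, which made 4, and Wnt1 had 3.

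Receptor regions were few and partly inside the genes. Of the 5 regions in coding exons 4 were in receptors: 1 in Fzd1, 1 in Fzd7 and 2 in Fzd8, between 1024 and 1878 bp from the start. These receptor genes have a single exon, so a region just past the 500 bp promoter window can fall in coding sequence. No share of coding-exon regions over all distal regions is given here. The strongest region near any of the 42 genes was counted for Fzd3, at chr14:65170061-65170280, with 10.1 in replicate 1 and 2.65 in replicate 2, but its nearest coding gene start was that of Extl3. The strongest near a co-receptor was counted for Lrp6 inside the neighbouring gene Mansc1 (chr6:134615401-134615560), with 6.81 and 1.89.

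Among the mediators, Axin2 had 1 distal region, in its intron 5062 bp from the outermost start (chr11:108925301-108925520), with 7.04 in replicate 1 and 1.69 in replicate 2. Tcf7l1 had 5 regions, of which 3 were intronic, and Tcf7l2 had 4, also with 3 in introns. The strongest near a TCF/LEF gene was downstream of Lef1 inside Hadh (chr3:131237841-131238040), with 6.85 and 1.19. The strongest near a Dishevelled gene was downstream of Dvl2 inside Dlg4 (chr11:70021381-70021760), with 4.74 and 2.60. Dvl1 had 7 regions, but all except 1 were nearest to Acap3 or inside it, and the lowest in replicate 1 had 0.184 and 0.263. With replicate 1 alone the count for Dvl1 was 21.

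**Figure D4:**
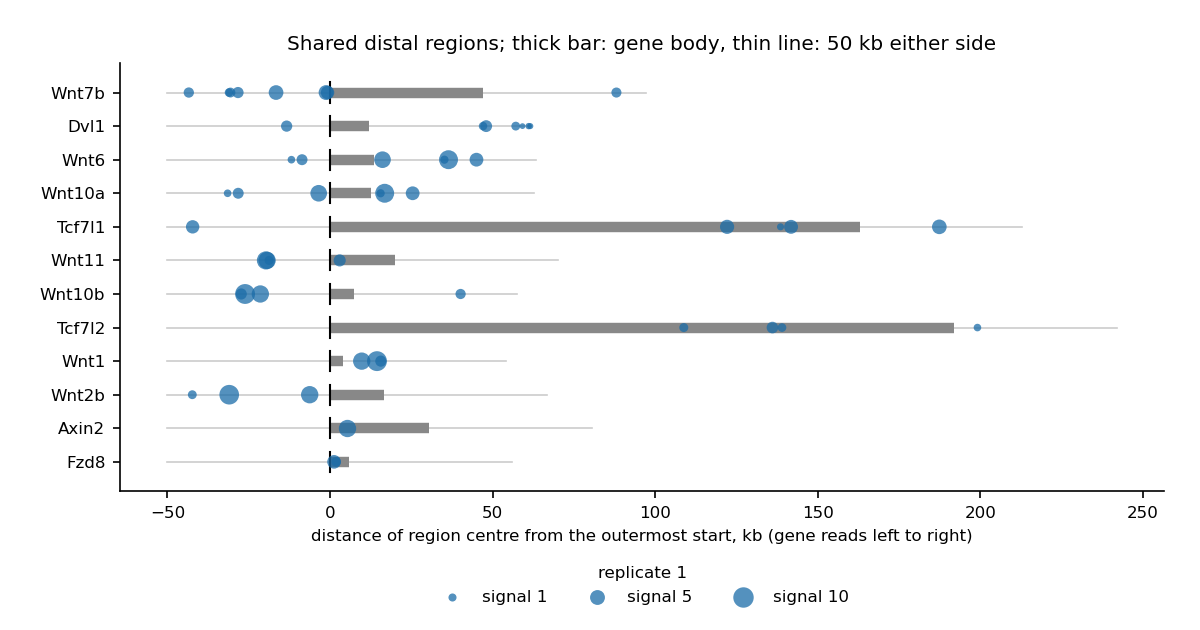
Position of shared distal regions (horizontal axis, kb from the outermost start, each gene drawn left to right) around 12 of the 42 genes (vertical axis); circle size is the deposited signal in replicate 1, the thick bar the gene body and the thin line 50 kb either side. Wnt7b has 7 of its 8 regions upstream, and Wnt11 has 3 of its 4.

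The TCF/LEF core was about as frequent in these distal regions as in distal regions in general. The core CTTTGAT was in 2 of 90 regions (2.22%, exact Clopper-Pearson 95% interval 0.27 to 7.8%, which covers counting error only), beside 2.55% of all 21904. None of the shared footprints in these regions held it. The shorter CTTTGA was in 12.2% of the regions, beside 12.8% of all. In the central 200 bp, GGGCGG was in 16.7% beside 10.6% of all, the AP-1 motif TGANTCA in 8.89% beside 6.89%, the E-boxes CAGCTG or CATCTG in 33.3% beside 37.7%, and the CTCF core in 15.6% beside 17.6%, each searched on both strands.

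The pathway's other genes, from lists of 60, also differed by role. All 8 further kinases and destruction complex genes were open, among them Gsk3b, the kinase that phosphorylates beta-catenin, with 6.93 in replicate 1 and 3.95 in replicate 2. Of the nuclear partners 7 of 8 were open. Of the listed target genes (Nkd1, Nkd2, Myc, Ccnd1 and Sp5) 5 of 5 were, with Ccnd1 at 7.02 and 2.08 and Sp5 at 0.838 and 0.450. Of the R-spondin axis 6 of 9 were open and of the other receptors and planar polarity genes 9 of 13. Of the secreted inhibitors 4 of 15 were open: Sfrp1, Frzb, Wif1 and Apcdd1, and Apcdd1 is a membrane protein. Porcn, which attaches the lipid to Wnt proteins, was open with 2.40 and 1.03, and Wls, which carries them to the surface, had a peak in replicate 1 only at 1.46. In all 40 of 60 were open (66.7%), beside 54.2% of all protein-coding genes. At the rate of each gene's own CpG decile the mean would be 75.9% over the kinases and destruction complex genes. It would be 81.3% over the nuclear partners, 84.9% over the target genes and 60.4% over the secreted inhibitors. For the R-spondin axis it would be 79.8%, for the other receptors and planar polarity genes 79.8%, and for Porcn and Wls 69.1%.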

How the data were processed

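DNase-seq was measured in 2 libraries of 1 group, and per the labels all files are on mm10. The authors deposited 4 files per library: 2 peak lists, a cut-rate file and footprints. No label or file header used here names the aligner, peak caller or filters. The deposited signal of a peak has no stated scaling and was used unchanged. The deposited p-values of the cut rate are FDRs, listed up to 0.05 only, and the deposited footprint FDR is constant at 0.01. Depth is unknown, and 2 libraries limit the precision.

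Genes came from GENCODE M21. Peaks, footprints and listed bases within 500 bp of any start and shared distal regions within 50 kb were counted with pysam 0.24.0, pandas 2.3.3 and numpy 2.4.6 under Python 3.11.15, and the code was tested on simulated data. Footprints were shared at an overlap of 1 bp. No hypothesis test was run, because there is 1 group.

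Every gene is named with its promoter class; signals are given for all with a strict peak, and distal regions for the 10 genes with the most and the strongest of each role. The last places among the 10 went by mean signal rank to Wnt1 and Wnt2b from 11 genes tied at 3 regions. Examples beyond that rule, such as regions in Fzd8 and the window shares, were chosen after their values were seen. The rule for the genes used symbols and no measured value, but the genes, lists and motifs were chosen with earlier results of these data known. Alternatives were other windows, start sets, peak lists, overlaps, flanks and motif forms, and each library alone.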

Additional observations from a re-analysis of the deposited data

How the results depend on the processing

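The count of open promoters among the 42 genes was 18 and stayed between 15 and 22 under the other windows, start sets, peak lists and overlaps, and between 18 and 26 with 1 library left out. Ligand counts moved most in relation to their size: 1 became 3 with the longer lists, 0 with a window of 250 bp, 3 with 2000 bp and 1 to 6 with 1 library left out. Ctnnb1 was 0 of 1 with the outermost start only, and the TCF/LEF count was 1 with the 250 bp window and 1 with the stronger 50% of each list. Genes with promoter footprints numbered 21 to 32 with 1 library left out. The median number of distal regions per gene, 2, became 1 within 10 kb, 3.5 within 100 kb, 4 with the longer lists, 4 with promoter regions included and 3 to 4 with 1 library left out, and their sum of 104 became 41, 167, 184, 195 and 131 to 203. The TCF/LEF core share of 2.22% became 12.2% for CTTTGA and 0% for the longer site. The use of the cut-rate files with 1 library left out, and the search for CACCTG, were chosen after seeing the data. No paired analysis was possible because both libraries belong to 1 group, and the part that depth plays in peaks of replicate 1 alone was not tested.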
